A study of Mus musculus with 15 samples.

Results

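In order to describe how whole-body irradiation and its combination with a burn altered the spleen's repertoire of T cell costimulatory and inhibitory (checkpoint) genes, 10 genes were followed by name: *Btla*, *Icosl*, *Icos*, *Cd28*, *Pdcd1*, *Cd274*, *Pdcd1lg2*, *Cd80*, *Cd86* and *Lag3*. Of these, 9 had a row among the 561 genes of the count table, and all 9 passed the minimum mean of 20 counts that left 426 genes for testing. *Lag3* was not analysed here. RNA came from spleen cell suspensions of female C57BL/6J mice after red cell lysis, and was measured on the nCounter Mouse Immunology Panel, in which colour-coded barcodes bound to each mRNA are counted without amplification. The 15 samples form 5 groups of 3. Sham mice had no injury, WBIR mice received whole-body ionizing radiation of 9 Gy, and RCI mice received a contact burn followed by the same dose. The methods of the burn model also include tribromoethanol anaesthesia, morphine and Lactated Ringer's solution, which are not described for irradiation alone. They add that sham groups had this procedure without burn or radiation. Whether this holds for the Sham samples here was not settled, so WBIR and Sham may also differ in these treatments. In WBIR+MSC-EVs and RCI+MSC-EVs, extracellular vesicles that bone marrow mesenchymal stem cells of C57BL/6J mice had released were given intravenously 72 hours after injury, and spleens were taken 48 hours later. The labels name PBS for RCI and no vehicle for WBIR, while the methods describe saline. The methods state that samples were run in triplicate, and nothing in the labels settles whether the 3 replicates were separate mice, so p-values measure the spread between these samples, which may be technical.

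A T cell that meets its antigen also reads further signals from the cell presenting it. CD28 and ICOS on the T cell deliver activating signals when they bind CD80 or CD86 and ICOS ligand (encoded by *Icosl*) respectively, whereas PD-1 (encoded by *Pdcd1*), bound by PD-L1 (*Cd274*) or PD-L2 (*Pdcd1lg2*), and BTLA, bound by the TNF receptor family member HVEM, restrain activation. In the spleen, CD28 and ICOS are carried mainly by T cells, BTLA by B cells and some T cells, ICOS ligand by B cells, and CD80, CD86, PD-L1 and PD-L2 by myeloid cells, dendritic cells and activated B cells. In bulk RNA, fewer cells of a type and less RNA per cell cannot be told apart. Probes differ in efficiency, so levels of different genes were not ranked against each other. Where a gene is given as a percentage of a marker mean, that percentage is compared only between groups.

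The sequences just upstream of 4 genes are shown because these genes span the range of responses described in the text. *Btla* had the largest decrease of the 9 genes, and *Cd80* was higher after irradiation. *Cd274* and *Pdcd1lg2* are direct neighbours on chromosome 19 that encode the ligands of PD-1, and only *Pdcd1lg2* was called in both injuries. Each run is the 250 bases before the annotated start on the plus strand of assembly GRCm38.p6 (RefSeq), with matches to the motifs named in the text in capitals. They lie at chr16:45224087-45224336 for *Btla*, chr16:38458683-38458932 for *Cd80*, chr19:29367188-29367437 for *Cd274* and chr19:29410669-29410918 for *Pdcd1lg2*.
Btla: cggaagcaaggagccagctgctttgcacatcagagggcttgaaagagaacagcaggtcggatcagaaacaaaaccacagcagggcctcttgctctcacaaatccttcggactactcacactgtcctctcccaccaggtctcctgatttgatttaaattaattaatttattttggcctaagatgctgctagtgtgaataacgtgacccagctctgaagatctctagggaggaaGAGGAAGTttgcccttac
Cd80: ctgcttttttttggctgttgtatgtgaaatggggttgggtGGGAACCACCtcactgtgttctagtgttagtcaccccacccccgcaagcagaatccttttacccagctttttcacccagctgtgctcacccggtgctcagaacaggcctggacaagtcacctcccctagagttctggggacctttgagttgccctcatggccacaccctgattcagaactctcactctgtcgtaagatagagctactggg
Cd274: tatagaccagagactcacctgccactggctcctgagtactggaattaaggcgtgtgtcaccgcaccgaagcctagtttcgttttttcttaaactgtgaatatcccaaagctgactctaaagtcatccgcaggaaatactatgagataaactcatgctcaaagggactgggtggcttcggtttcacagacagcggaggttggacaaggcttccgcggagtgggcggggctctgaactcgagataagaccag
Pdcd1lg2: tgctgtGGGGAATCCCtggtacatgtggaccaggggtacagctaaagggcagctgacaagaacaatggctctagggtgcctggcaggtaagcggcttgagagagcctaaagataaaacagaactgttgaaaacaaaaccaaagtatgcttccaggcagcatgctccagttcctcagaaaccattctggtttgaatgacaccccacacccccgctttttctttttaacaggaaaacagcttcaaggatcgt

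Upstream sequences were matched for 6 of the 9 genes, those named above plus *Icosl* and *Pdcd1*; *Cd28*, *Icos* and *Cd86* are named only. Both strands were searched for a gamma-activated site (TTCNNNGAA), an interferon response core (GAAA, any 2 bases, GAAA), an NF-kB site (GGGA, any 4 bases, CC) and a PU.1 site (GAGGAAGT). The NF-kB letters were found 210 bases before the start of *Cd80*, 71 bases before *Icosl* and 244 bases before *Pdcd1lg2*, and the PU.1 letters 18 bases before *Btla*. Of 32851 upstream sequences of the same length, 17.6% held the NF-kB letters, 2.44% the PU.1 letters, 7.02% the gamma-activated site and 2.98% the interferon core. Among the 504 matched to genes of the panel, these shares were 25.2%, 2.98%, 10.7% and 5.16% in the same order. No match to any of the 4 motifs was found in the windows of *Cd274* and *Pdcd1*. A match is a description of letters and not evidence of binding. In the same annotation *Cd28*, *Ctla4* and *Icos* follow each other on chromosome 1.

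Library totals ranged from 90127 to 598872 counts, with the lowest in WBIR+MSC-EVs replicate 1. Markers of spleen lymphocytes were well represented in Sham, where the summed scaled count was 9088 to 18928 for 10 T cell genes and 17152 to 18450 for 7 B cell genes. RCI replicate 3 and Sham replicate 2 stood apart from others of their group. RCI replicate 3 had a summed macrophage and monocyte signal of 39487 against 17217 and 18675 in the other RCI samples, and the lowest B cell sum of the RCI samples at 425. The sum of *Csf1r* and *Emr1* alone, which belong to the same macrophage list, was instead lowest in that replicate, at 6439 against 9913 and 8706. Sham replicate 2 had a T cell sum of 18928 against 10030 and 9088, and the highest neutrophil sum of the Sham samples at 44392. Without RCI replicate 3, Sham replicate 2 or WBIR+MSC-EVs replicate 1, the number of the 9 genes called in the comparisons against Sham stayed between 8 and 9, and that in the comparisons between irradiated groups stayed at 0.

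**Figure D1:**
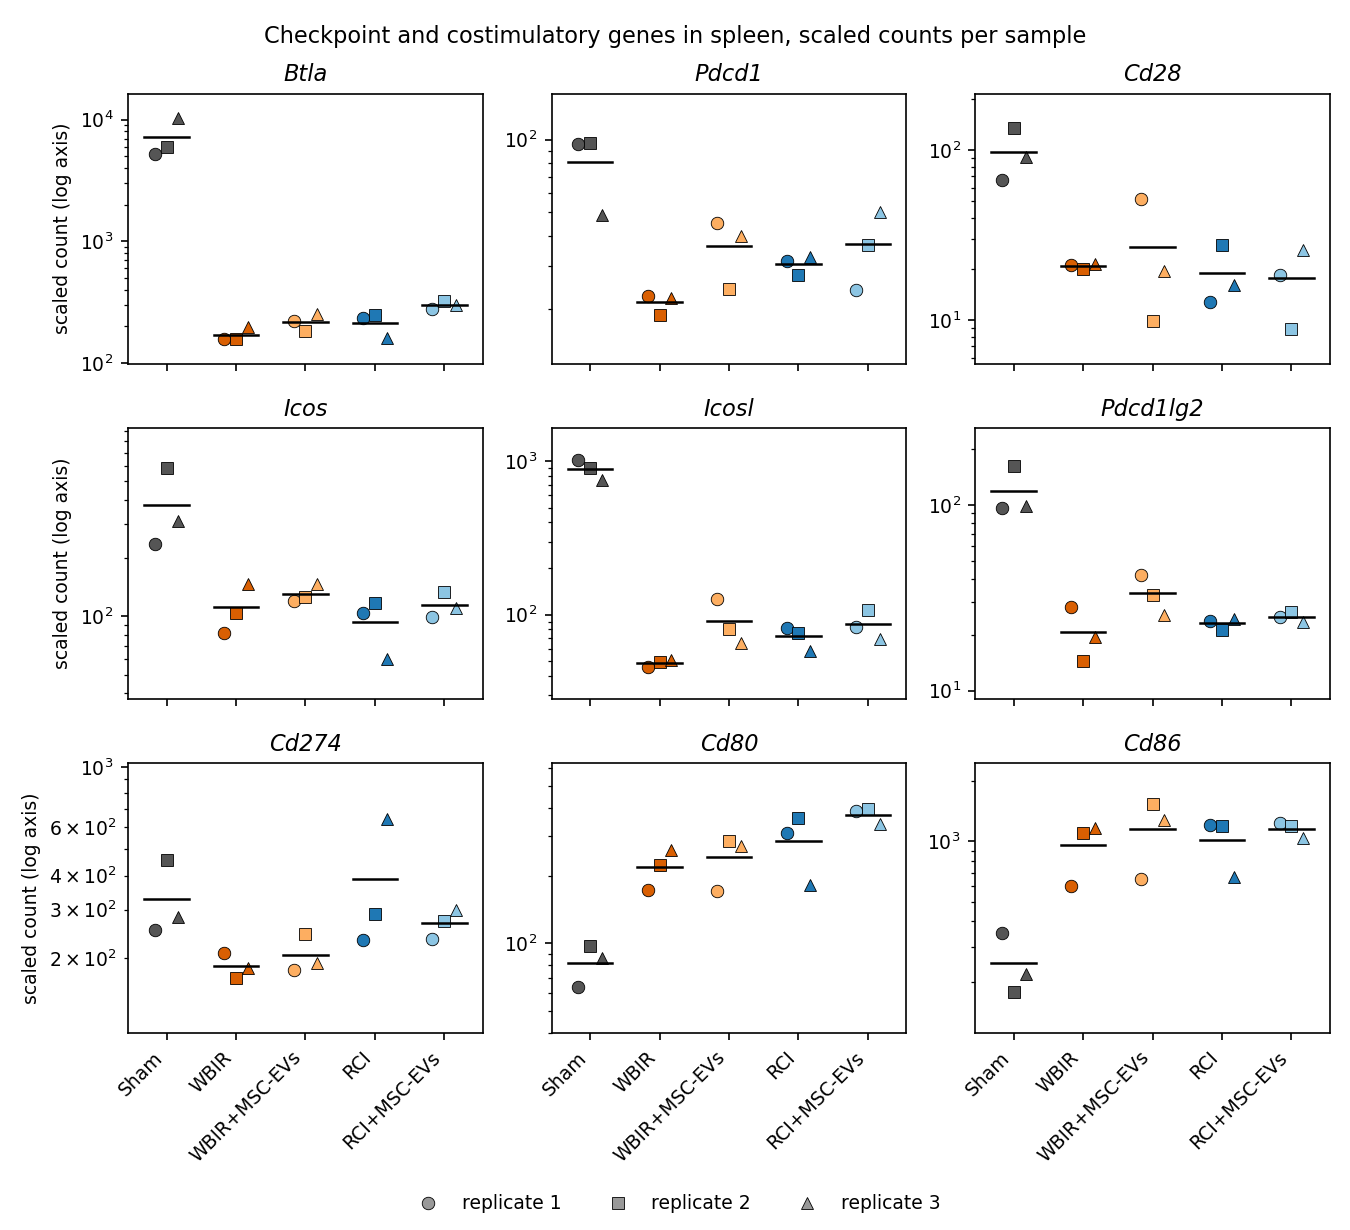
Scaled counts of the 9 genes in each of the 15 samples, on a log axis that differs between panels, with symbols for replicates and a bar for the group mean. All 12 irradiated samples lie below the 3 Sham samples for *Btla*, *Cd28*, *Icos*, *Icosl* and *Pdcd1lg2*, and above them for *Cd80* and *Cd86*. Of all tested genes, 71.1% did not overlap between Sham and WBIR and 64.6% between Sham and RCI. The share over all 12 irradiated samples was not computed.

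To determine the impact of each injury, irradiated groups were compared with Sham. Relative to the panel's reference genes, both injuries divided these genes into a large group that was lower and a pair that was higher. In WBIR, 7 of the 9 genes fell (*Btla*, *Icosl*, *Pdcd1lg2*, *Cd28*, *Pdcd1*, *Icos* and *Cd274*) and 2 rose (*Cd80* and *Cd86*). In RCI the same division held except for *Cd274*, which was not called, leaving 6 genes lower and 2 higher. These counts stand beside a background in which most of the panel moved: in WBIR against Sham 68.5% of the 426 genes tested were called, 21.6% higher and 46.9% lower, and in RCI against Sham 69.5% were called, 26.5% higher and 43.0% lower. The median log2 fold change (log2FC) was -1.90 over the 9 genes and -0.74 over all tested genes in WBIR, and -2.01 and -0.53 in RCI. All comparisons with Sham share the same 3 Sham samples. The values did not overlap between Sham and WBIR for any of the 9 genes, and between Sham and RCI for 8, against 71.1% and 64.6% of all tested genes.

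*Btla*, the inhibitory receptor, fell furthest. Scaled counts, which are barcode counts divided by the sample's reference gene level, were 5250, 5925 and 10263 in the Sham samples, 158, 157 and 198 in WBIR, and 235, 249 and 159 in RCI. Every irradiated sample was far below every Sham sample. The log2FC was -5.38 (SE 0.32, edgeR quasi-likelihood test, adjusted p = 3.96e-08) in WBIR and -5.06 (SE 0.32, adjusted p = 3.31e-08) in RCI, that is 41.7-fold and 33.4-fold lower than in Sham.

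*Pdcd1*, which encodes the inhibitory receptor PD-1, was measured at low counts. It had 95.5, 96.9 and 48.9 scaled counts in Sham, 22.6, 18.9 and 22.2 in WBIR, and 31.5, 27.6 and 32.6 in RCI. Sham replicate 3 was the lowest Sham sample and still lay above all samples of WBIR and RCI. The log2FC was -1.90 (SE 0.37, edgeR adjusted p = 0.000437) in WBIR and -1.37 (SE 0.36, adjusted p = 0.00344) in RCI.

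The activating receptors *Cd28* and *Icos* fell as well. *Cd28* had 66.4, 135 and 91.1 scaled counts in Sham, 21.2, 20.0 and 21.3 in WBIR, and 12.8, 27.6 and 16.0 in RCI. Its log2FC was -2.20 (SE 0.53, edgeR adjusted p = 0.00206) in WBIR and -2.37 (SE 0.53, adjusted p = 0.00118) in RCI, with raw counts down to 7 in irradiated samples. *Icos*, which is induced when T cells are activated, had 237, 584 and 310 scaled counts in Sham, 82.0, 105 and 147 in WBIR, and 103, 117 and 60.1 in RCI. Sham replicate 2 was the highest sample for both genes, and no irradiated sample reached the lowest Sham sample. For *Icos* the log2FC was -1.75 (SE 0.35, edgeR adjusted p = 0.000562) in WBIR and -2.01 (SE 0.36, adjusted p = 0.000205) in RCI.

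Among the ligands, *Icosl*, whose product engages ICOS, fell by the widest margin. It had 1028, 907 and 758 scaled counts in Sham, 45.2, 48.9 and 50.9 in WBIR, and 81.8, 76.4 and 58.2 in RCI. The 3 WBIR samples lay close together and below all 3 RCI samples. The log2FC was -4.21 (SE 0.29, edgeR adjusted p = 7.56e-08) in WBIR and -3.64 (SE 0.28, adjusted p = 2.77e-07) in RCI.

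Of the neighbouring genes for the ligands of PD-1, only *Pdcd1lg2* was called in both injuries, and the difference between them was not tested. *Pdcd1lg2* (PD-L2) had 96.4, 161 and 98.7 scaled counts in Sham, 28.3, 14.5 and 19.4 in WBIR, and 23.6, 21.1 and 24.3 in RCI, without overlap. Its log2FC was -2.51 (SE 0.33, edgeR adjusted p = 1.46e-05) in WBIR and -2.34 (SE 0.32, adjusted p = 2.25e-05) in RCI. *Cd274* (PD-L1) had 252, 455 and 281 scaled counts in Sham, 208, 169 and 184 in WBIR, and 233, 290 and 645 in RCI. *Cd274* in WBIR lay just below Sham, while its RCI samples spread across and beyond the Sham range, with RCI replicate 3 the highest of all 15 samples.

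For *Cd274* the log2FC was -0.81 (SE 0.34, edgeR adjusted p = 0.04997) in WBIR, close to the median of all tested genes, and 0.25 (SE 0.34, adjusted p = 0.506) in RCI. The WBIR call was lost under 18 of 22 alternatives, all but DESeq2 and leaving out RCI replicate 1, RCI replicate 3 or Sham replicate 1. It was -0.29 (adjusted p = 0.514) with scaling by TMM, a trimmed mean over the endogenous genes, and -0.51 (adjusted p = 0.208) without Sham replicate 2. Without RCI replicate 3 the RCI value was -0.32 (adjusted p = 0.291). In that library the sum of all macrophage and monocyte markers was also highest, while that of *Csf1r* and *Emr1* was the lowest of the RCI samples, as given above. The part of these markers in the *Cd274* value was not tested.

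*Cd80* and *Cd86*, the ligands of CD28 and of the inhibitory receptor CTLA-4, rose. *Cd80* had 63.7, 96.9 and 86.0 scaled counts in Sham, 172, 222 and 259 in WBIR, and 310, 361 and 182 in RCI. *Cd86* had 349, 178 and 218 in Sham, 601, 1103 and 1171 in WBIR, and 1200, 1195 and 663 in RCI. Every irradiated sample lay above every Sham sample for both genes, and RCI replicate 3 was the lowest RCI sample for both. The log2FC of *Cd80* was 1.42 (SE 0.30, edgeR adjusted p = 0.000686) in WBIR and 1.80 (SE 0.30, adjusted p = 0.000114) in RCI. That of *Cd86* was 1.94 (SE 0.38, adjusted p = 0.000435) in WBIR and 2.02 (SE 0.38, adjusted p = 0.000299) in RCI.

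**Figure D2:**
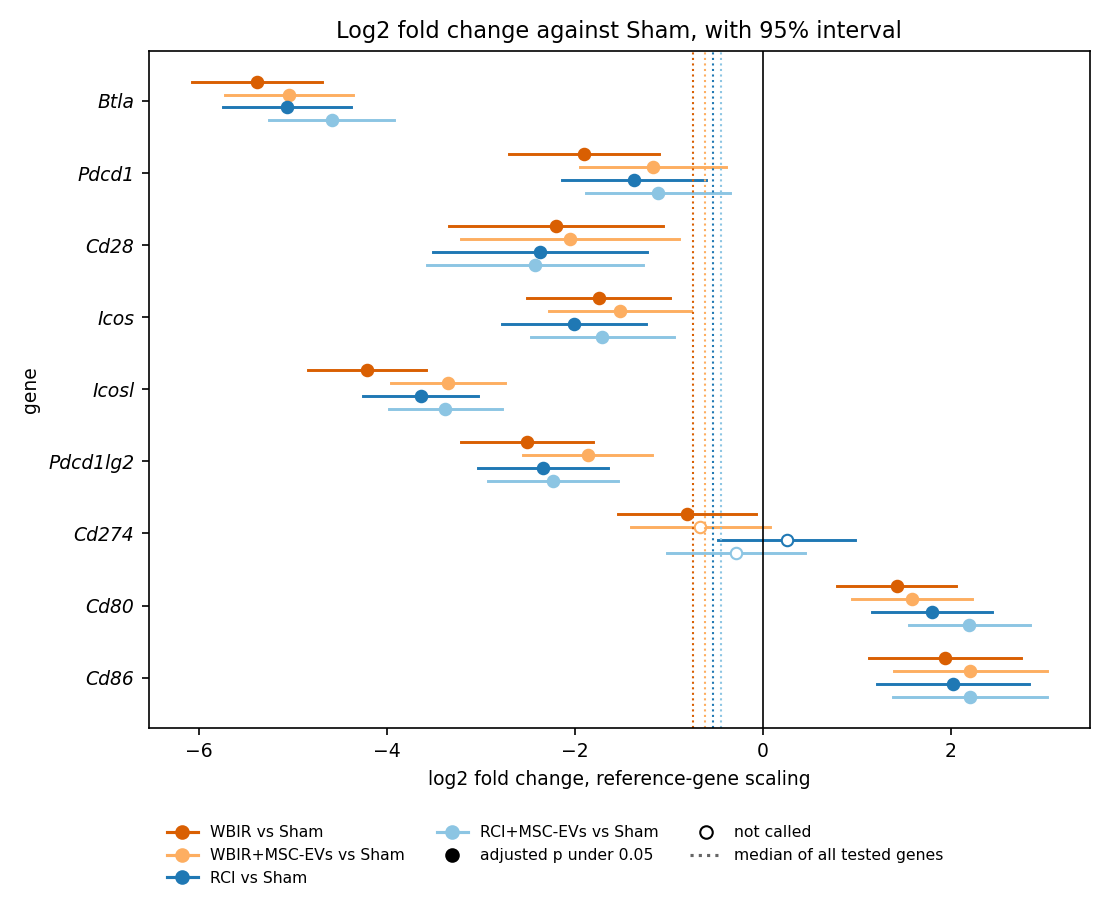
Log2 fold change of each gene against Sham in the 4 irradiated groups, with 95% intervals from the edgeR fit; filled points were called at an adjusted p under 0.05 and dotted lines are the medians of all 426 tested genes. *Btla* and *Icosl* lie furthest below the medians, *Cd80* and *Cd86* lie above 0 in all 4 groups, and *Cd274* lies nearest to 0.

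Mice that received MSC-EVs showed the same division against Sham. In WBIR+MSC-EVs, 2 of the 9 genes were higher and 6 lower, where 67.8% of all tested genes were called (22.8% higher and 45.1% lower). In RCI+MSC-EVs, 2 were likewise higher and 6 lower, where 65.3% were called (23.9% higher and 41.3% lower). *Cd80* and *Cd86* were the genes that rose and *Cd274* the gene that was not called in either, although in WBIR+MSC-EVs it was called at -0.66 (adjusted p = 0.0245) without RCI replicate 3. *Btla* had a log2FC of -5.04 (SE 0.32, edgeR adjusted p = 6.71e-08) in WBIR+MSC-EVs and -4.58 (SE 0.31, adjusted p = 1.35e-07) in RCI+MSC-EVs. *Pdcd1* was the nearest to the threshold of the genes called lower, at -1.17 (SE 0.36, adjusted p = 0.0103) and -1.11 (SE 0.36, adjusted p = 0.0132), and its RCI+MSC-EVs samples at 24.0, 36.6 and 50.3 scaled counts reached into the Sham range. The *Pdcd1* call was lost in WBIR+MSC-EVs with TMM scaling (-0.83, adjusted p = 0.0555), with median-of-ratios scaling (-0.74, adjusted p = 0.0776) and without WBIR+MSC-EVs replicate 2 (-0.92, adjusted p = 0.0589), and in RCI+MSC-EVs without replicate 1 of that group (-0.87, adjusted p = 0.0683).

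The cell type markers of the panel moved along with these genes. All 10 T cell genes and all 7 B cell genes tested fell in WBIR and in RCI, and 6 of 7 macrophage and monocyte genes rose in each. The summed T cell markers fell from the Sham range of 9088 to 18928 down to 2023 to 2645 in WBIR and 2049 to 3315 in RCI. The summed B cell markers were 686 to 1027 in WBIR and 425 to 883 in RCI, against 17152 to 18450 in Sham. The summed macrophage and monocyte markers were 11256 to 19484 in WBIR and 17217 to 39487 in RCI, against 1865 to 3025 in Sham. Among the T cell genes *Cd8a* and *Cd8b1* had a log2FC of -3.86 and -4.00 in WBIR and *Cd4* one of -1.19. Of the 5 dendritic cell genes 1 was higher and 2 lower in each injury, and their sum was 3520 to 3601 in Sham, 1505 to 1564 in WBIR and 886 to 2175 in RCI, without overlap with Sham. The summed neutrophil markers were 7845 to 44392 in Sham, 1676 to 5242 in WBIR and 1452 to 2002 in RCI. The part of these cell type markers in the values of the 9 genes was tested only by the scales of the T cell, B cell and macrophage markers.

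To set each gene against the cells that carry it, counts were rescaled to lineage markers, which were then left out of the test: 4 T cell genes (*Cd3d*, *Cd3e*, *Cd5* and *Cd6*), 6 B cell genes (*Ms4a1*, *Cd79a* and *Pax5* among them) or 2 macrophage genes (*Csf1r* and *Emr1*). Such a scale shifts all genes together, so the median of all genes was 1.81 and 1.74 on the T cell scale in WBIR and RCI, 3.85 and 4.16 on the B cell scale, and -3.44 and -3.31 on the macrophage scale. The share of all genes called was then 78.9% in WBIR and 78.7% in RCI on the T cell scale, 96.7% and 96.4% on the B cell scale, and 85.8% and 83.3% on the macrophage scale.

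Per T cell marker, *Cd28*, *Icos* and *Pdcd1* were not called lower in either injury. The share of all tested genes called lower on this scale was not tabulated. *Cd28* scaled counts were 6.57% to 11.4% of the geometric mean of the T cell markers in Sham, 9.12% to 11.8% in WBIR and 4.90% to 9.69% in RCI, and the log2FC on this scale was 0.24 (SE 0.56, edgeR adjusted p = 0.691) in WBIR and -0.17 (SE 0.55, adjusted p = 0.795) in RCI. *Icos* was 23.5% to 39.9% of the marker mean in Sham, 45.6% to 63.0% in WBIR and 36.5% to 41.1% in RCI. It rose per T cell marker in WBIR, by a log2FC of 0.73 (SE 0.25, adjusted p = 0.0141), and was not called in RCI at 0.20 (SE 0.25, adjusted p = 0.479). The values of *Cd28* and *Icos* were all below the medians of all tested genes on this scale, 1.81 in WBIR and 1.74 in RCI. The WBIR call of *Icos* was lost without Sham replicate 1 (0.51, adjusted p = 0.0622) and without WBIR replicate 3 (0.63, adjusted p = 0.0523). On the same scale *Cd4* had a log2FC of 1.28 (SE 0.21, adjusted p = 4.22e-05) and *Cd8a* one of -1.30 (SE 0.31, adjusted p = 0.00120) in WBIR, and 1.06 (SE 0.20, adjusted p = 0.000222) and -1.82 (SE 0.31, adjusted p = 6.94e-05) in RCI, so the balance of these T cell genes differed from Sham, and its part in the *Icos* value was not tested.

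*Pdcd1* was 6.13% to 9.45% of the T cell marker mean in Sham, 9.52% to 12.6% in WBIR and 9.69% to 19.8% in RCI. The log2FC on this scale was 0.55 (SE 0.41, edgeR adjusted p = 0.229) in WBIR and 0.90 (SE 0.40, adjusted p = 0.0489) in RCI, and the RCI call was lost under 14 of 19 alternatives, including at 0.55 (adjusted p = 0.259) without RCI replicate 3. The *Pdcd1* values in WBIR and RCI were below the medians of all tested genes on this scale, 1.81 and 1.74. *Btla* stayed lower on the T cell scale, at -3.07 (SE 0.36, adjusted p = 1.44e-06) in WBIR and -3.01 (SE 0.36, adjusted p = 1.93e-06) in RCI.

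On the B cell scale *Btla* had a smaller decrease, called in WBIR alone, and *Icosl* none that was called. *Btla* was 271% to 608% of the geometric mean of the B cell markers in Sham, 193% to 224% in WBIR and 247% to 343% in RCI. Its log2FC per B cell marker was -0.89 (SE 0.35, edgeR adjusted p = 0.0202) in WBIR and -0.49 (SE 0.35, adjusted p = 0.176) in RCI. The WBIR call was lost without Sham replicate 3 (-0.43, adjusted p = 0.242) and without WBIR replicate 1 (-0.83, adjusted p = 0.0661). *Icosl* was 44.9% to 53.0% of the marker mean in Sham, 55.1% to 68.5% in WBIR and 75.8% to 125% in RCI. Its log2FC per B cell marker was 0.33 (SE 0.35, adjusted p = 0.362) in WBIR and 0.99 (SE 0.35, adjusted p = 0.00951) in RCI, where it rose. The values of *Btla* and *Icosl* were all below the medians of all tested genes on this scale, 3.85 in WBIR and 4.16 in RCI. On the reference scale these medians were -0.74 and -0.53, so the smaller decrease of *Btla* includes a shift shared by all genes.

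On the scale of both macrophage markers *Cd80* and *Cd86* were lower than in Sham, but this rested on *Emr1*. The medians of all tested genes on this scale were lower still, at -3.44 in WBIR and -3.31 in RCI. *Cd80* was 9.41% to 20.9% of the geometric mean of *Csf1r* and *Emr1* in Sham, 4.83% to 6.85% in WBIR and 6.26% to 8.31% in RCI. *Cd86* was 34.2% to 51.6% in Sham, 23.9% to 24.2% in WBIR and 23.1% to 27.5% in RCI. Neither gene overlapped with Sham on this scale, and the share of all tested genes without overlap on it was not computed. The log2FC on this scale was -1.34 (SE 0.41, edgeR adjusted p = 0.00518) and -1.04 (SE 0.40, adjusted p = 0.0233) for *Cd80* in WBIR and RCI, and -0.79 (SE 0.32, adjusted p = 0.0272) and -0.73 (SE 0.32, adjusted p = 0.0391) for *Cd86*. Both markers rose in WBIR relative to the reference genes, *Csf1r* by a log2FC of 1.80 and *Emr1* by 3.67. On the scale of *Csf1r* alone, an alternative chosen after seeing the data, neither gene was called: *Cd80* had -0.51 (SE 0.47, adjusted p = 0.332) in WBIR and 0.16 (SE 0.47, adjusted p = 0.775) in RCI, and *Cd86* 0.13 (SE 0.36, adjusted p = 0.753) and 0.55 (SE 0.36, adjusted p = 0.184). On that of *Emr1* alone, *Cd80* had -2.19 (SE 0.45, adjusted p = 0.000108) and -2.20 (SE 0.45, adjusted p = 9.64e-05), and *Cd86* -1.73 (SE 0.39, adjusted p = 0.000267) and -1.98 (SE 0.39, adjusted p = 6.62e-05). The RCI call of *Cd80* was lost without RCI replicate 1 (-0.97, adjusted p = 0.0805), RCI replicate 3 (-0.98, adjusted p = 0.0533) or Sham replicate 2 (-0.72, adjusted p = 0.0889). The WBIR call of *Cd86* was lost without Sham replicate 1 (-0.59, adjusted p = 0.110), WBIR replicate 2 (-0.78, adjusted p = 0.0754) or WBIR replicate 3 (-0.79, adjusted p = 0.0649), and its RCI call under 12 of 19 alternatives.

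The PD-1 ligands were set on the same 3 scales. *Cd274* had a log2FC of 1.67 (SE 0.46, edgeR adjusted p = 0.00378) in WBIR and 2.67 (SE 0.47, adjusted p = 0.000101) in RCI per T cell marker, 3.73 (SE 0.55, adjusted p = 2.39e-06) and 5.19 (SE 0.58, adjusted p = 5.91e-08) per B cell marker, and -3.51 (SE 0.62, adjusted p = 4.74e-05) and -2.39 (SE 0.59, adjusted p = 0.00109) per macrophage marker. *Pdcd1lg2* had -0.05 (SE 0.38, adjusted p = 0.898) and -0.07 (SE 0.37, adjusted p = 0.857) per T cell marker, 2.00 (SE 0.46, adjusted p = 0.000314) and 2.36 (SE 0.46, adjusted p = 3.79e-05) per B cell marker, and -5.17 (SE 0.71, adjusted p = 2.93e-06) and -5.12 (SE 0.70, adjusted p = 2.96e-06) per macrophage marker. Both genes were thus higher per B cell marker and lower per macrophage marker, as was the median of all tested genes. That median was 3.85 in WBIR and 4.16 in RCI per B cell marker, and -3.44 and -3.31 per macrophage marker. The difference between *Cd274* and *Pdcd1lg2* was not tested. On the scale of *Csf1r* alone *Cd274* in RCI was not called (-0.99, adjusted p = 0.211). These ratios describe RNA of the whole spleen, and which cells carried each transcript was not measured.

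**Figure D3:**
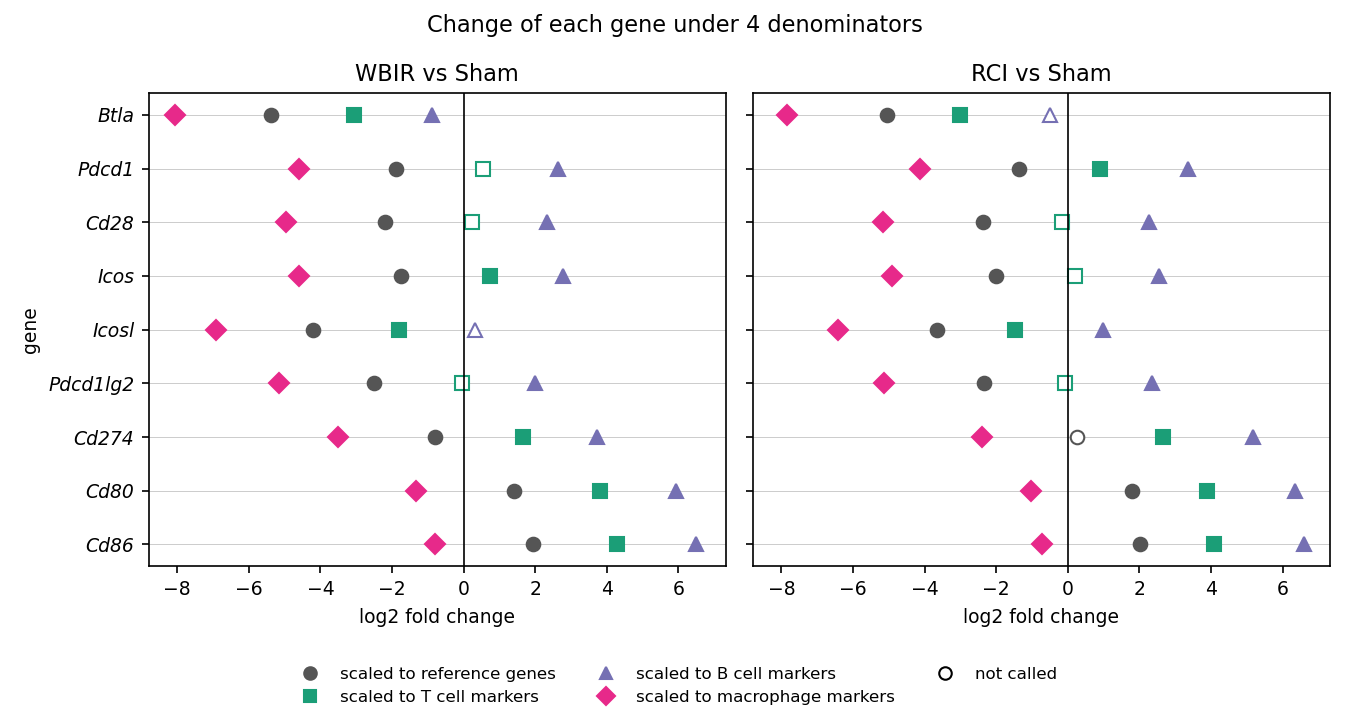
Log2 fold change of each gene in WBIR (left) and RCI (right) against Sham when counts are scaled to the reference genes, to 4 T cell markers, to 6 B cell markers or to 2 macrophage markers; open symbols were not called. *Cd28* lies near 0 on the T cell scale, *Btla* and *Icosl* lie nearest 0 on the B cell scale, and *Cd80* and *Cd86* are below 0 on the scale of both macrophage markers only. The scale of *Csf1r* alone, on which *Cd80* in RCI and *Cd86* were above 0 and not called, is not drawn.

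Next, irradiated groups were compared with each other to assess the added burn and the MSC-EVs. Between RCI and WBIR, the burn cannot be told apart from the anaesthesia, morphine and fluid that the burn model includes. Between RCI and WBIR, 0.704% of all tested genes (3 of 426) were called by edgeR and none of these was among the 9 genes. At an unadjusted p under 0.05 the count was 71 of all tested genes and 1 of the 9, and DESeq2 called 28 genes, with 0 of the 9. *Cd274* showed the largest difference of the 9 genes, with a log2FC of 1.06 (SE 0.34, unadjusted p = 0.00798, adjusted p = 0.126) and every RCI sample above every WBIR sample. That value was 0.48 (adjusted p = 0.342) without RCI replicate 3 and was called at 1.33 (adjusted p = 0.0457) without RCI replicate 1. *Icosl* at 0.57 (95% interval -0.01 to 1.15) and *Pdcd1* at 0.53 (-0.27 to 1.33) were the other 2 genes without overlap between RCI and WBIR, where 27.0% of all genes did not overlap.

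With MSC-EVs, none of the 9 genes was called by edgeR in either injury, and the share called over all tested genes was 0% in WBIR+MSC-EVs against WBIR, 0% in RCI+MSC-EVs against RCI, 0% for the mean effect of MSC-EVs across WBIR and RCI, and 0% for the difference between the injuries. At an unadjusted p under 0.05 there were 11, 14, 14 and 11 of all tested genes, of which 1, 0, 1 and 0 were among the 9. DESeq2 called 0, 0, 1 and 0 genes, and 0 of the 9 in each. The log2FC was above 0 for 9 of the 9 genes in WBIR and 7 of the 9 in RCI, as it was for 72.1% and 70.0% of all tested genes. The intervals are wide: for *Cd28* they ran from -1.06 to 1.35 in WBIR and from -1.24 to 1.13 in RCI.

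*Icosl* was the gene with the smallest p in the WBIR pair. Its scaled counts were 126, 80.8 and 65.2 in WBIR+MSC-EVs, all above the 45.2 to 50.9 of WBIR, and 83.0, 107 and 69.0 in RCI+MSC-EVs, overlapping the 58.2 to 81.8 of RCI. The WBIR samples with vesicles stayed far below the Sham minimum of 758. The log2FC was 0.86 (SE 0.27, 95% interval 0.27 to 1.45, edgeR unadjusted p = 0.00715, adjusted p = 0.997) in WBIR and 0.26 (SE 0.26, interval -0.30 to 0.83, adjusted p = 0.989) in RCI. The highest of these samples, WBIR+MSC-EVs replicate 1, was the library of lowest total, and without it the WBIR value was 0.59 (adjusted p = 0.989). Averaged over both injuries the value was 0.56 (SE 0.19, unadjusted p = 0.0104, adjusted p = 0.739), and the difference between the injuries was -0.60 (SE 0.38, adjusted p = 0.998).

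Like *Icosl*, the other receptors and ligands were not called with MSC-EVs. *Pdcd1* had 45.3, 24.1 and 39.9 scaled counts in WBIR+MSC-EVs, above all WBIR samples, with a log2FC of 0.73 (95% interval -0.08 to 1.54, edgeR adjusted p = 0.997). *Btla* had 277, 321 and 297 scaled counts in RCI+MSC-EVs, above all RCI samples, with a log2FC of 0.48 (interval -0.11 to 1.06, adjusted p = 0.989). These genes and *Icosl* in WBIR were the only genes of the 9 without overlap, where 8.92% of all tested genes in WBIR and 10.8% in RCI did not overlap. *Cd274* had a log2FC of 0.14 in WBIR and -0.54 (interval -1.27 to 0.19) in RCI, and the RCI value was 0.04 without RCI replicate 3. *Cd80* had 386, 395 and 339 scaled counts in RCI+MSC-EVs and a log2FC of 0.40 (interval -0.21 to 1.00), with RCI replicate 2 inside that range. *Cd86* had a log2FC of 0.27 in WBIR and 0.18 in RCI.

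**Figure D4:**
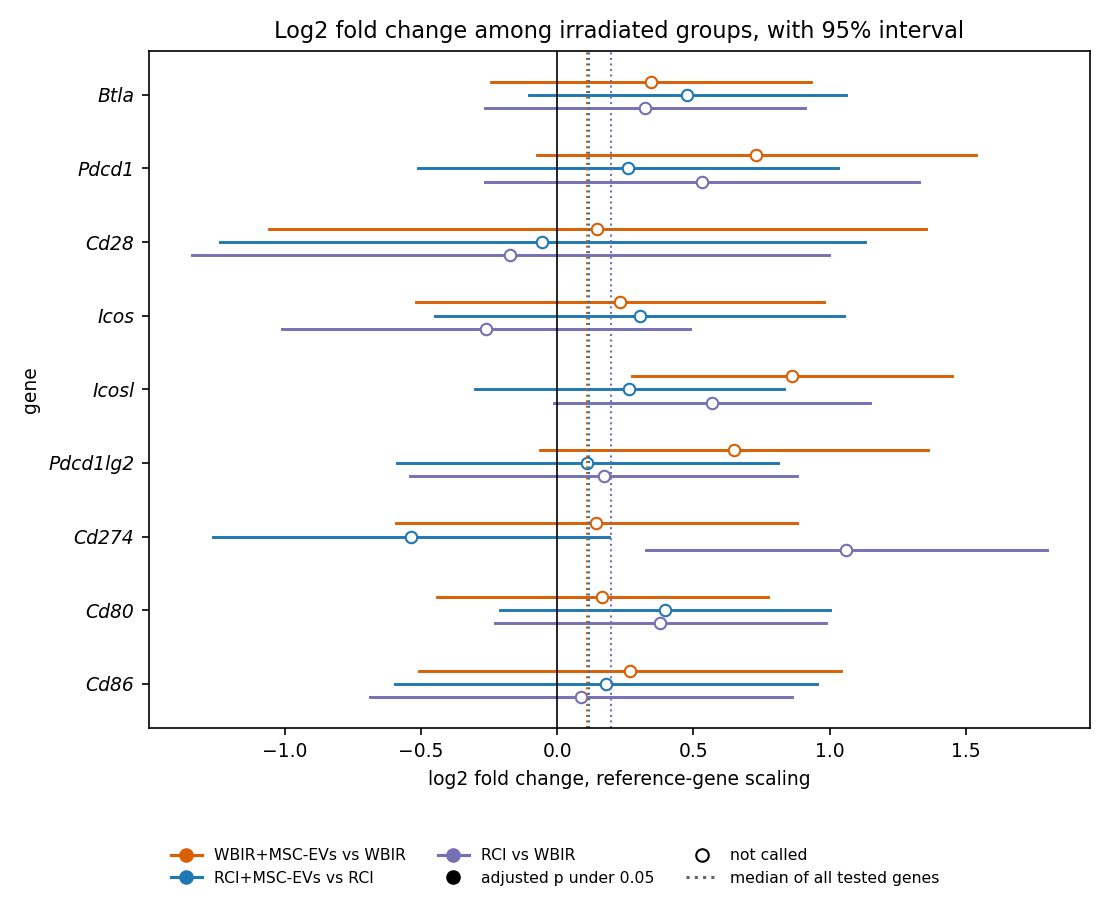
Log2 fold change with 95% interval for MSC-EVs in WBIR, MSC-EVs in RCI, and RCI against WBIR; open points were not called and dotted lines are the medians of all tested genes. No point is filled, and the intervals that leave out 0 are those of *Icosl* with MSC-EVs in WBIR and *Cd274* in RCI against WBIR.

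Ordered by their group means, *Btla*, *Icosl*, *Icos*, *Cd28*, *Pdcd1* and *Pdcd1lg2* were highest in Sham, and *Cd80* and *Cd86* lowest there. Among the irradiated groups most neighbours in that order overlapped. The exceptions were *Btla*, *Icosl* and *Pdcd1*. For *Btla* the RCI+MSC-EVs mean of 298 stood clear of the WBIR+MSC-EVs mean of 217, but these 2 groups were not tested against each other. For *Icosl* and *Pdcd1*, RCI with means of 72.1 and 30.6 stood clear of WBIR with means of 48.4 and 21.2. Between RCI and WBIR 27.0% of all tested genes did not overlap, and between the 2 groups with MSC-EVs this share was not computed.

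Among other genes of the costimulatory and checkpoint families, the share called was near that of the panel. Of 24 further genes tested, 3 rose (12.5%), 14 fell (58.3%) and 7 were not called in WBIR, where 21.6% of all tested genes rose and 46.9% fell. In RCI 3 rose (12.5%), 12 fell (50.0%) and 9 were not called, where 26.5% of all tested genes rose and 43.0% fell. The list had a median log2FC of -1.17 and -1.07 beside -0.74 and -0.53 for all tested genes. *Ctla4*, the inhibitory counterpart of *Cd28* that lies next to it on chromosome 1, had a log2FC of -3.66 in WBIR and -2.78 in RCI. *Cd40*, through which helper T cells activate B cells and antigen-presenting cells, had -3.31 and -3.19, and its ligand *Cd40lg* -1.97 and -1.95. The genes that rose were *Cd244*, a SLAM family receptor (2.07 and 2.46), the inhibitory collagen receptor *Lair1* (2.05 and 2.15) and the tetraspanin *Cd81* (1.31 and 1.42).

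Of 18 genes that signal downstream of CD28, PD-1 and BTLA, 14 fell (77.8%), none rose and 4 were not called in each injury, beside 46.9% lower and 21.6% higher over all tested genes in WBIR and 43.0% and 26.5% in RCI, with a median log2FC of -1.21 and -0.97. *Lck*, the kinase that starts T cell receptor signalling, had -1.99 in WBIR and -1.90 in RCI, while *Ptpn6*, the phosphatase SHP-1 that inhibitory receptors recruit, had -0.01 (edgeR adjusted p = 0.975) in WBIR. Of 25 genes known to induce PD-L1, PD-L2, CD80 or CD86, 4 rose and 11 fell in WBIR, and 6 rose and 9 fell in RCI. With 10 not called in each injury, 60.0% of this list was called, no more than the 68.5% and 69.5% of all tested genes. Among those that rose in WBIR were *Irf7* (2.10), *Tlr4* (2.10) and *Myd88* (0.85), and *Rela* and *Nfkb1*, subunits of NF-kB, fell (-0.86 and -0.85). In each of these 3 lists no gene was called with MSC-EVs in either injury.

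The genes whose scaled log2 counts were most like each of the 9 over the 15 samples are given as a description, since all points share the contrast between Sham and irradiated samples. *Btla* was closest to *Map4k1* (Pearson's r = 0.985), *Icosl* to *Ccr6* (0.992), *Icos* to *Cd6* (0.942), *Pdcd1lg2* to *Ncf4* (0.958), *Cd28* to *Runx3* (0.917) and *Pdcd1* to *Traf3* (0.903). Over the 12 irradiated samples alone these values were 0.787 for *Map4k1*, 0.872 for *Ccr6*, 0.775 for *Cd6*, 0.662 for *Ncf4*, 0.768 for *Runx3* and 0.855 for *Traf3*. *Cd80* was closest to *Lilra5* (0.971, and 0.934 in the irradiated samples), a leukocyte immunoglobulin-like receptor gene, and *Cd86* to *Cd81* (0.979 and 0.955).

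*Cd274* was closest to *Itga5*, *Nfkbiz* and *Cd55*, with r of 0.872, 0.864 and 0.860. Each of these was also high in RCI replicate 3. *Itga5*, an integrin gene, had 14.8, 30.3 and 136 scaled counts in the RCI samples, *Nfkbiz*, a regulator of NF-kB targets, had 266, 334 and 894, and *Cd55*, a complement regulator, had 226, 258 and 1464. The highest value of each in the RCI samples was thus that of the library in which *Cd274* was highest.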

How the data were processed

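Spleen RNA of 15 samples was hybridised, counted and normalised with nSolver by the authors. The deposited table holds whole barcode counts for each gene, before that normalisation, and the labels gave each sample's group and replicate number. Here samples were scaled to the geometric mean of 14 reference genes, and the 426 of 547 endogenous genes whose mean reached 20 counts were tested by quasi-likelihood in edgeR 4.0.16 (R 4.3.3), with 1 coefficient per group over all 15 samples and two-sided p-values adjusted by Benjamini-Hochberg. Called means an adjusted p under 0.05. SE is the absolute log2FC over the square root of F, and replicates varied by 33.1% (coefficient of variation) beyond counting error. Replicates of a group differed by more than counting noise. Several reference genes themselves differed from Sham, in both directions. On the log2 scale *G6pdx* differed by 2.83, *Gapdh* by 1.29, *Polr1b* by -1.70 and *Tbp* by -1.30 in WBIR. In RCI *G6pdx* differed by 3.07 and *Tubb5* by -2.53. Alternatives used TMM, median-of-ratios scaling, 7 stable reference genes, no filter, DESeq2 1.42.0, limma 3.58.1 with a pseudocount of 10, a replicate block, and each sample left out. Same-numbered samples of WBIR and WBIR+MSC-EVs (r from 0.24 to 0.68) and of RCI and RCI+MSC-EVs (r from 0.26 to 0.52) deviated from their group means together. The other groups did not pair (r over 0.1 in 5 of 24 pairs). Over all groups, the most alike sample of another group had the same number for 5 of the 15 samples. The numbers were therefore taken as a possible pairing only, on these data and not on the labels, and the main tests do not use it. Further alternatives were chosen after seeing the data: a replicate block within each injury, and a scale of 1 macrophage marker. The genes followed, the gene lists and the rules for naming genes were chosen with earlier results of these data known. The edgeR script was tested on simulated data. Some genes of the lists are not reported here by name. Control probes and cartridges were not used here.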

Additional observations from a re-analysis of the deposited data

How the results depend on the processing

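Values scaled to reference genes had 22 alternatives (7 settings and 15 that leave out 1 sample), and the 1026 values on the T cell, B cell and macrophage scales had 19 (4 settings and the same 15). Together the 2808 recomputed log2FC values of the 9 genes held 58 that lost a call, 2 that gained one and 0 called values that changed sign; 53 uncalled values changed sign. Of the 792 values against Sham, 22 lost a call, all of *Cd274* in WBIR or of *Pdcd1* with MSC-EVs, and 36 of the lost calls were on the cell type scales. With *Csf1r* alone as the macrophage scale, chosen after seeing the data, called values changed sign: *Cd86* was at 0.13 in WBIR and 0.55 in RCI, and *Cd80* at 0.16 in RCI; *Emr1* alone kept their direction and calls. The number of the 9 genes called between RCI and WBIR was 0 and ranged from 0 to 1 when a sample was left out. TMM and median-of-ratios scaling moved the median of all tested genes in WBIR against Sham from -0.74 to -0.19 and -0.11, and in RCI from -0.53 to -0.21 and -0.14, so smaller changes depend on the scale, as for *Cd274*. All genes called between RCI and WBIR numbered 3, but 1 with TMM scaling, 5 with median-of-ratios scaling, 28 with DESeq2, and 1 to 15 when a sample was left out. For MSC-EVs averaged over both injuries DESeq2 called 1 gene and edgeR 0. With the replicate block within each injury, also chosen after seeing the data, 0 of the 9 genes and 0 of all tested genes were called with MSC-EVs in WBIR, in RCI, averaged or between the injuries (7, 16, 16 and 11 genes at an unadjusted p under 0.05), so it changed no call. With the replicate block over all groups the count of the 9 genes called was 8 in place of 9 in WBIR and 8 in RCI. *Cd28*, *Pdcd1* and *Pdcd1lg2*, with few counts after irradiation, are also limited by counting error.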
